A study of Mus musculus with 18 samples.

Results

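The luminal pioneer and lineage transcription factors described here are 6 genes, Foxa1, Gata3, Tbx3, Tfap2a, Tfap2b and Tfap2c, chosen by name out of 52636 genes in each count table. All 6 were among the 18298 genes with enough counts to test. RNA was sequenced from sorted cells of the mouse mammary gland in 18 libraries, 3 biological replicates in each of 6 groups. The mice were wild type (WT) for Esr1, the gene of estrogen receptor alpha, or carried the receptor mutation D542G or Y541S, and each genotype gave cells of a gate named ML and of a gate named N. Mice of every group were raised to 6 months of age, had E2/P4 hormone pellets (estradiol with progesterone) implanted and were given the estrogen receptor antagonist giredestrant by mouth at 30 mg/kg daily for 4 days. No group without giredestrant was analysed here, so its effect was not compared. By its title the study looked in wild-type tissue for rare cells of a kind induced by receptor antagonism. The labels do not spell out what N stands for, so whether N against ML bears on that question is not known here.

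FOXA1 is a forkhead pioneer factor, able to bind its sites in closed chromatin, and it opens sites for the estrogen receptor in hormone-sensing luminal cells. GATA3 is a zinc finger factor needed to form and keep luminal cells, and TBX3 is a T-box repressor needed to make the mammary placode. TFAP2A, TFAP2B and TFAP2C are AP-2 factors that bind a GC-rich palindrome as dimers. AP-2 gamma, the product of Tfap2c, binds near FOXA1 and the estrogen receptor in breast cancer cells.

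The label of the ML gate, mature luminal, held against luminal markers, though some ML libraries also had raised sums of other markers. The labels give that same source for the N libraries, where the markers went against it. Summed over 10 luminal markers such as Krt8, Krt18 and Epcam, the level was 15730 to 30890 CPM (counts scaled to an equal library total) in the 9 ML libraries and 1412 to 6021 CPM in 8 of the 9 N libraries. The other N library, WT N 3, stood at 18430 CPM. The sum of 10 basal markers, among them Krt5, Krt14 and Acta2, was 13960 to 36020 CPM in the same 8 N libraries, 5057 CPM in WT N 3 and 144 to 6322 CPM in ML. Within ML it was 6322 CPM in WT ML 1, 4719 CPM in WT ML 2, 1705 CPM in Y541S ML 3 and at most 414 CPM elsewhere. Markers of keratinized epidermis summed to 3844 and 9960 CPM in WT N 1 and 2 and to 11770 CPM in Y541S N 3, against at most 725 CPM in the other N libraries. In ML their sum was 1645 CPM in Y541S ML 3 and at most 303 CPM elsewhere. For hair follicle keratins WT ML 1 had a sum of 6206 CPM, Y541S ML 3 of 3992 CPM and WT ML 2 of 1286 CPM, and no other library had over 151 CPM. The libraries totalled 34797778 to 49507144 counts.

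The Foxa1 gene lies on chromosome 12 (GRCm38, 57540628 to 57546916, minus strand), Gata3 on chromosome 2 (9857078 to 9890034, minus), Tbx3 on chromosome 5 (119670669 to 119684724, plus), Tfap2a on chromosome 13 (40715302 to 40738376, minus), Tfap2b on chromosome 1 (19208914 to 19238576, plus) and Tfap2c on chromosome 2 (172549593 to 172558622, plus). RefSeq promoter windows were at hand for 4 of the 6 members. The 250 bases before the RefSeq start are printed for Foxa1, the most variable member, and for Gata3 and Tfap2b, which were both lower in N. Each of these windows lies within the gene span given above, so its start is not the outermost annotated start of the gene. Capitals mark matches, on either strand, to 4 motifs bound by the members' own families. The forkhead motif searched was TGTTTAC. For GATA factors it was AGATAA and for AP-2 factors GCCNNNGGC. The T-box motif was AGGTGTGA.
Foxa1, chr12:57546112-57546361, GRCm38.p6, minus strand: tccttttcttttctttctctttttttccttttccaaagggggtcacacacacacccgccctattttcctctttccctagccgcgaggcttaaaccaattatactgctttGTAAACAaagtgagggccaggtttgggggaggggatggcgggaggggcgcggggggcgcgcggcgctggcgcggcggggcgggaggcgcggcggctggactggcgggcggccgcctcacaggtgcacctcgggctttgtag
Gata3, chr2:9878601-9878850, GRCm38.p6, minus strand: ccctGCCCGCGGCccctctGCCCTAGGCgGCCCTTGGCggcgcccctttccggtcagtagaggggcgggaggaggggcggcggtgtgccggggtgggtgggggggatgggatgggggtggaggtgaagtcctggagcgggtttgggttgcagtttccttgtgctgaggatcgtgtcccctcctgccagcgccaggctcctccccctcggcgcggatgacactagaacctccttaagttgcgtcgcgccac
Tfap2b, chr1:19211804-19212053, GRCm38.p6, plus strand: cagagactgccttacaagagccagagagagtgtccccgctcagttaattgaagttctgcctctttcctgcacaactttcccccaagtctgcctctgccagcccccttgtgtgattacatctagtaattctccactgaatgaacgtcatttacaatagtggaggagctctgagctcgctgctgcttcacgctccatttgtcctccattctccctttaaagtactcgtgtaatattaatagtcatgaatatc
The Foxa1 window held 1 forkhead match, GTAAACA read on the sense strand, 141 to 135 bases before the start. In the Gata3 window 3 AP-2 matches stood within a short stretch, 246 to 238, 231 to 223 and 221 to 213 bases before the start, and this window also overlaps an exon of the antisense gene Gm13256. The Tfap2b window held none of the 4 motifs. Over 32851 RefSeq windows of the same length, 3.17% held the forkhead motif, 9.99% the GATA motif, 13.7% the AP-2 motif and 1.12% the T-box motif. GC content was 62.0% for Foxa1, 70.0% for Gata3 and 46.4% for Tfap2b, against a median of 52.4%. No match within a window overlapped another, and a match is a description of letters, not of binding.

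The change from ML to N divided the members. Gata3 and Tfap2b were lower in N and Tfap2c was higher, while Foxa1, Tbx3 and Tfap2a did not pass the test over the 3 genotypes. That test did not use the library number as a block, and with such a block Foxa1 passed, as given below. With edgeR's quasi-likelihood test and Benjamini-Hochberg adjustment, 3 of the 6 members had an adjusted p under 0.05, against 27.4% of all genes tested. The 1 higher member compares with 13.8% of genes called higher, and the 2 lower members with 13.6% called lower. The median log2 fold change over all genes was −0.029. In these bulk libraries, fewer cells of a type and less RNA per cell cannot be told apart.

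**Figure D1:**
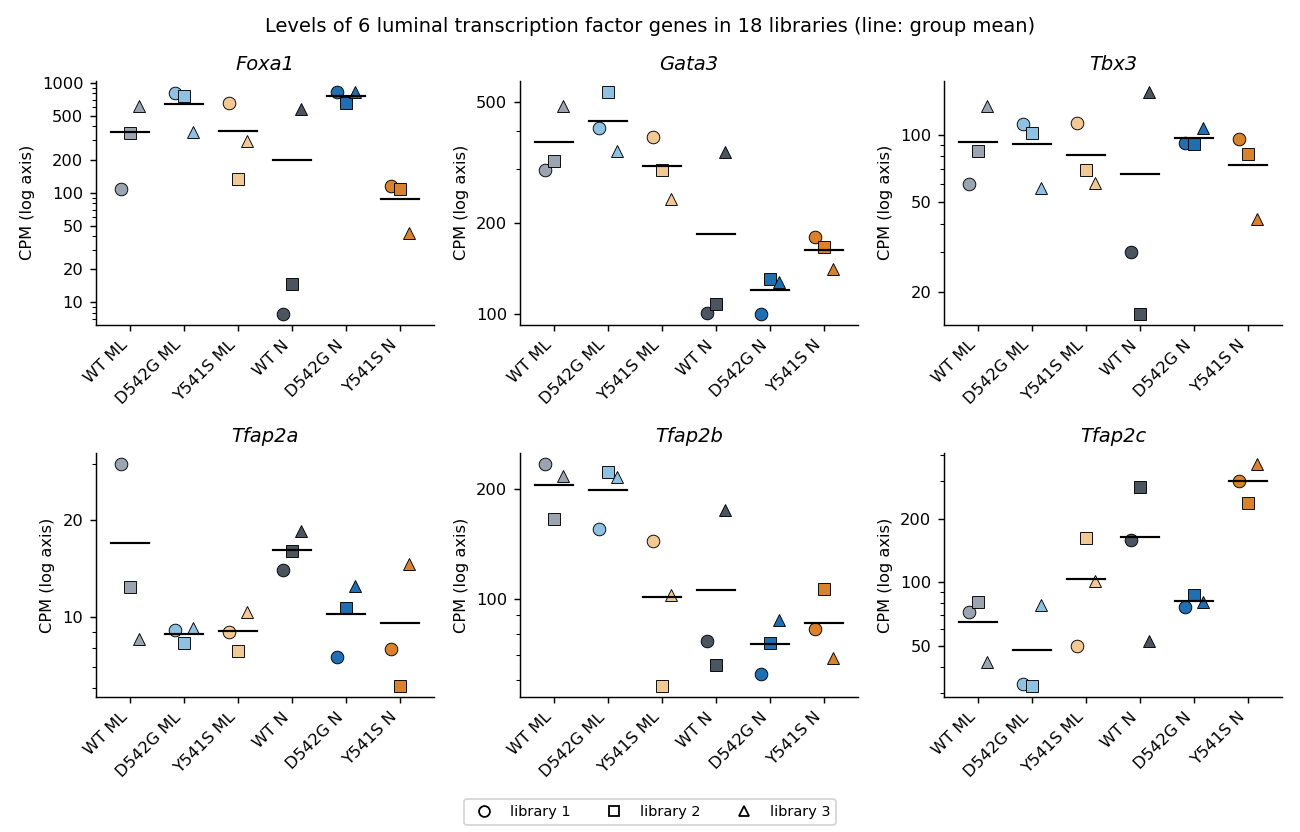
Level of each member in the 18 libraries, as CPM on a log axis, by genotype and gate. Marker shapes give the library number and the black line the group mean of 3 libraries; Foxa1 ranges from 7.88 to 823 CPM, and WT N 3 sits far above the other WT N libraries for Foxa1, Gata3 and Tbx3.

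Foxa1 had the widest spread of the members, 104.6-fold between its lowest and its highest library. In the ML gate Foxa1 stood at 107, 348 and 619 CPM in WT, 803, 752 and 356 CPM in D542G and 660, 134 and 297 CPM in Y541S. Its N levels were 7.88, 14.7 and 573 CPM in WT, 817, 652 and 823 CPM in D542G and 114, 107 and 43.0 CPM in Y541S. The D542G N libraries lay in the upper part of the ML range or just over it, Y541S N 1 and 2 lay near the bottom of that range, Y541S N 3 below it, and 2 WT N libraries far below it. WT N 3, the library with a high luminal and a low basal marker sum, was the exception among WT N libraries. N against ML gave a log2 fold change of −0.88 ± 0.65 (SE) over the 3 genotypes, with an edgeR adjusted p of 0.342, and the 2 gates overlapped. Without WT N 3 the log2 fold change of Foxa1 was −2.26, with an edgeR adjusted p of 0.000679.

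Within genotypes the Foxa1 values were −0.85 ± 1.12 in WT, 0.26 ± 1.11 in D542G and −2.04 ± 1.16 in Y541S on the log2 scale, and none passed edgeR's test (adjusted p 0.702, 0.919 and 0.321). In WT the result rested on WT N 3: without it the log2 fold change was −4.99, with an edgeR adjusted p of 0.00225. Library numbers were taken to pair the N and ML libraries of a genotype. Foxa1 was lower in the N library in 7 of the 9 pairs, with log2 ratios of −3.77 and −4.57 in the first 2 WT pairs and −0.11 in the third. With the number as a block, the log2 fold change over the genotypes was −1.52 and the edgeR adjusted p 0.0477.

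Gata3 was lower in N in each genotype's mean. Its ML values were 299, 318 and 485 CPM in WT, 411, 538 and 345 CPM in D542G and 383, 298 and 240 CPM in Y541S. Its N values were 101, 108 and 340 CPM in WT, 100.49, 130.5 and 128 CPM in D542G and 180, 167 and 141 CPM in Y541S. All 9 N libraries lay below the ML median of 345 CPM, and WT N 3 alone among them reached into the ML range. Gata3 fell in N over the 3 genotypes by 1.26 ± 0.22 (SE) on the log2 scale, a 2.39-fold decrease with an edgeR adjusted p of 0.00102. The N library was the lower in 9 of 9 pairs, with log2 ratios of −2.04 to −0.51. The call was kept in all 18 fits that left out 1 library, where the log2 fold change ran from −1.53 to −1.14.

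By genotype, Gata3 fell in D542G by 1.85 ± 0.40 on the log2 scale (edgeR adjusted p 0.0102). This call was lost without D542G N 1 (edgeR adjusted p 0.0523). The values in WT and Y541S were −1.004 ± 0.39 and −0.92 ± 0.39, with edgeR adjusted p of 0.160 and 0.178. Both passed with the library number as a block, at −1.21 (edgeR adjusted p 0.0267) in WT and −0.90 (0.0495) in Y541S, and both passed without WT N 3, at −1.81 (edgeR adjusted p 0.000965) and −0.92 (0.0218). In D542G N the group mean was 120 ± 16.7 CPM for Gata3 and 764 ± 97.2 CPM for Foxa1 (SD, n = 3). These 3 libraries thus joined low Gata3 with high Foxa1, whereas WT N 1 and 2, with Gata3 at 101 and 108 CPM, were also low for Foxa1. The D542G N libraries had luminal marker sums of 4523 to 6021 CPM and basal sums of 13960 to 15670 CPM, and the part of cell make-up in these levels was not tested.

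**Figure D2:**
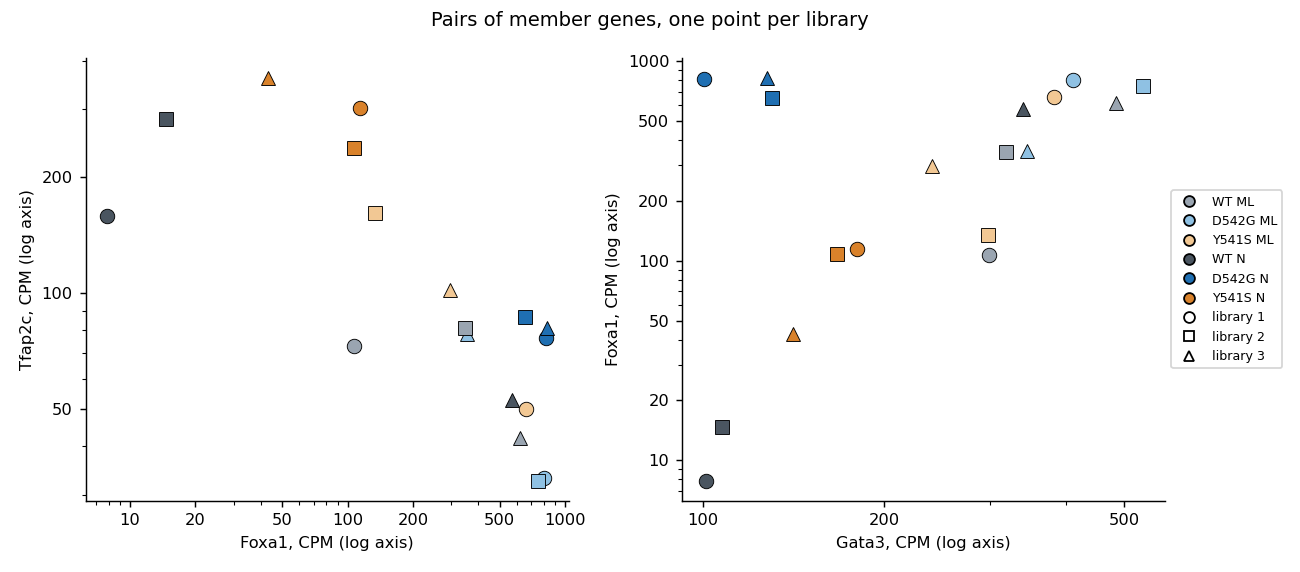
Tfap2c against Foxa1 (left) and Foxa1 against Gata3 (right), in CPM on log axes, with 1 point per library. The 3 D542G N libraries combine Gata3 at 100.49 to 130.5 CPM with Foxa1 at 652 to 823 CPM, and Tfap2c is above 200 CPM only in libraries with Foxa1 at 114 CPM or less.

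Tbx3 had no common direction between the gates. Its ML values were 60.1, 84.5 and 134 CPM in WT, 112, 102 and 57.9 CPM in D542G and 113, 69.5 and 61.0 CPM in Y541S. Its N values were 30.2, 16.0 and 155 CPM in WT, 92.2, 90.7 and 107 CPM in D542G and 95.2, 81.7 and 42.0 CPM in Y541S. WT N 1 and 2 were the lowest of the 18 libraries, WT N 3 the highest, and the other 15 lay between 42.0 and 134 CPM. Over the 3 genotypes the log2 fold change of Tbx3 was −0.18 ± 0.36, with an edgeR adjusted p of 0.760, and the N library was the lower in 6 of 9 pairs. Without WT N 3 it was −0.69, with an edgeR adjusted p of 0.0323. In WT the log2 fold change was −0.47 ± 0.62 (edgeR adjusted p 0.701) with all libraries and −2.01 (0.00940) without WT N 3. The values in D542G and Y541S were 0.09 ± 0.62 and −0.15 ± 0.62 on the log2 scale, with edgeR adjusted p of 0.953 and 0.924.

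Of the AP-2 genes, Tfap2b fell in N and Tfap2c rose, while Tfap2a was low in each library and did not pass the test. Tfap2b, which encodes AP-2 beta, stood at 233, 166 and 217 CPM in WT ML, 156, 223 and 216 CPM in D542G ML and 144, 57.9 and 102 CPM in Y541S ML. In N it stood at 76.6, 66.1 and 175 CPM in WT, 62.3, 75.5 and 87.6 CPM in D542G and 82.9, 106 and 68.7 CPM in Y541S. The ML libraries of WT and D542G lay at 156 CPM or more, while 8 of the 9 N libraries and the Y541S ML libraries lay below that, so the gates overlapped. Tfap2b fell over the 3 genotypes by 0.86 ± 0.21 on the log2 scale, a 1.82-fold decrease (edgeR adjusted p 0.00762). The N library was the lower in 8 of 9 pairs, the second Y541S pair being the exception, and the call was kept in all 18 fits that left out 1 library.

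By genotype, Tfap2b fell in D542G by 1.40 ± 0.37 on the log2 scale (edgeR adjusted p 0.0292). That call was lost without D542G ML 2 or ML 3, or without any 1 of D542G N 1, N 2 and N 3, with edgeR adjusted p of 0.0614 to 0.112. In WT the log2 fold change was −0.96 ± 0.36 (edgeR adjusted p 0.155), and −1.53 (0.00739) without WT N 3. In Y541S it was −0.24 ± 0.36 (edgeR adjusted p 0.763). Y541S ML 2, the lowest of the ML libraries for Tfap2b, had a luminal progenitor marker sum of 13730 CPM, against 1347 to 2301 CPM in the other ML libraries. Y541S N 2 stood at 18520 CPM of that sum, against 84.3 to 249 CPM in the other N libraries. The sum includes the milk protein genes Lalba and Csn2, so it need not stand for progenitors alone. Elf5, also in it, stood at 250 CPM in Y541S ML 2 and 58.6 to 105 CPM in the other ML libraries. In Y541S N 2 Elf5 was at 67.1 CPM, and at 0.587 to 8.48 CPM in the other N libraries. The part of this sum in the Tfap2b result was not tested.

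Tfap2c, which encodes AP-2 gamma, stood at 72.7, 80.9 and 42.0 CPM in WT ML, 33.1, 32.6 and 78.4 CPM in D542G ML and 50.0, 161 and 102 CPM in Y541S ML. In N it stood at 159, 282 and 52.7 CPM in WT, 76.4, 86.8 and 81.0 CPM in D542G and 301, 237 and 361 CPM in Y541S. The Y541S N libraries were high as a group, the D542G N libraries lay close to the ML median of 72.7 CPM, and WT N 3 was the lowest N library. Tfap2c rose in N over the 3 genotypes by 1.21 ± 0.31 on the log2 scale, a 2.31-fold increase (edgeR adjusted p 0.00963). The N library was the higher in 9 of 9 pairs, by 0.05 to 2.59 on the log2 scale, and the call was kept in all 18 fits that left out 1 library.

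Within a genotype Tfap2c did not pass edgeR's test, at 1.33 ± 0.53 in WT, 0.76 ± 0.53 in D542G and 1.52 ± 0.53 in Y541S on the log2 scale (adjusted p 0.171, 0.406 and 0.106). In Y541S it passed with the library number as a block, at 1.66 with an edgeR adjusted p of 0.04995. Without WT N 3 it passed in WT, at 1.76 (edgeR adjusted p 0.0205), and in Y541S, at 1.52 (0.0357). In D542G it passed by limma-voom, at 1.199 (adjusted p 0.0187).

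Tfap2a, which encodes AP-2 alpha, was the lowest of the members per kb of exon in each group. It stood at 29.9, 12.4 and 8.54 CPM in WT ML, 9.11, 8.28 and 9.24 CPM in D542G ML and 8.96, 7.83 and 10.4 CPM in Y541S ML. In N it stood at 14.0, 16.0 and 18.6 CPM in WT, 7.51, 10.6 and 12.5 CPM in D542G and 7.94, 6.11 and 14.6 CPM in Y541S. WT ML 1, with the highest sum of hair follicle keratins, was also the highest for Tfap2a, and that sum's part in its level was not tested. The log2 fold change over the 3 genotypes was 0.07 ± 0.24 (edgeR adjusted p 0.867). By genotype the values were −0.07 ± 0.41 in WT, 0.20 ± 0.41 in D542G and 0.08 ± 0.41 in Y541S on the log2 scale, with edgeR adjusted p of 0.947, 0.815 and 0.943. Its lowest value, in Y541S N 2, rested on 243 counts. Of the Tfap2a exon bases 14.6% are shared with antisense genes, and the use of strand in counting is not given in the sources used here.

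**Figure D3:**
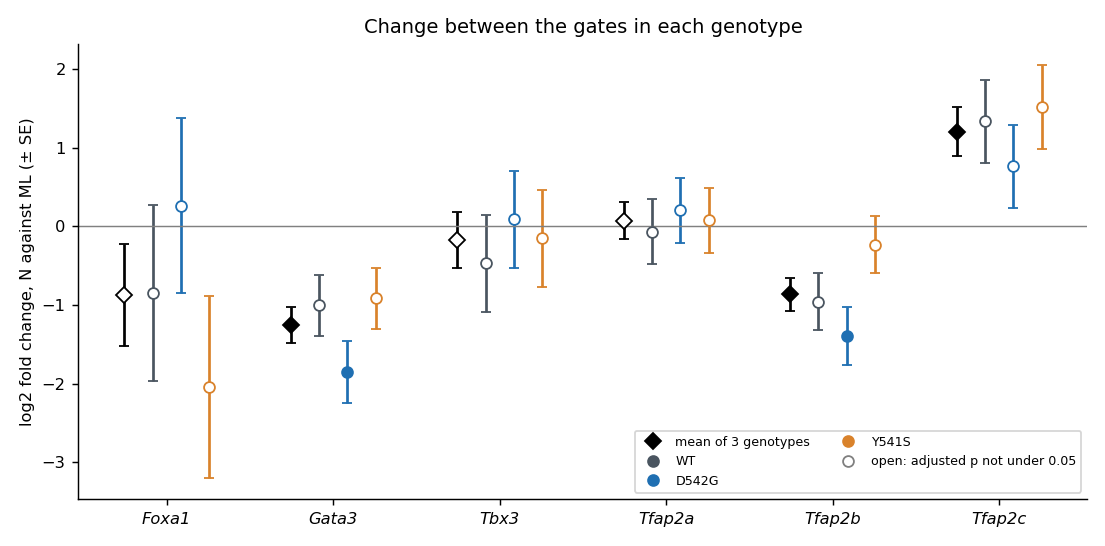
Log2 fold change of N against ML for each member, with error bars of 1 SE, as the mean of 3 genotypes and in each genotype. Filled symbols had an edgeR adjusted p under 0.05: Gata3, Tfap2b and Tfap2c over the genotypes, and Gata3 and Tfap2b in D542G.

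By genotype, edgeR called 2 of 6 members in D542G, where 9.2% of all genes were called, 0 of 6 in WT, where 3.53% were, and 0 of 6 in Y541S, where 6.95% were. In WT, 3 members had an unadjusted p under 0.05, DESeq2 called 0 and limma-voom with quality weights called 5. In Y541S, 2 members had an unadjusted p under 0.05, and DESeq2 and limma-voom each called 1, Tfap2c. Over all genes the counts in Y541S were 4087, 2504 and 2595. In D542G, DESeq2 called 2 and limma-voom 3, the third being Tfap2c. Of all genes in D542G, DESeq2 called 3186 and limma-voom 5862. The weight that limma-voom gave WT N 3 was 0.18, the lowest of the 18 libraries.

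The balance between Tfap2b and Tfap2c differed between libraries. Levels per kb of exon were added over Tfap2a, Tfap2b and Tfap2c, and each gene's share of the sum is given as a description. The share of Tfap2c was 31.5, 43.4 and 24.1% in WT ML, 25.4, 19.4 and 37.2% in D542G ML and 35.7, 80.3 and 60.3% in Y541S ML. In N it was 74.3, 84.8 and 31.4% in WT, 64.6, 62.6 and 57.3% in D542G and 84.8, 78.1 and 87.6% in Y541S. Tfap2b had the largest share in the WT and D542G ML libraries, in Y541S ML 1 and in WT N 3, and Tfap2c in the other 10 libraries. The sum of the 3 genes was 35.4 to 62.7 CPM per kb in ML, 32.1 to 38.4 in D542G N, 82.4 to 112 in Y541S N and 45.7 to 90.3 in WT N. The D542G N libraries thus had a low sum with a majority of Tfap2c, and the Y541S N libraries a high one.

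**Figure D4:**
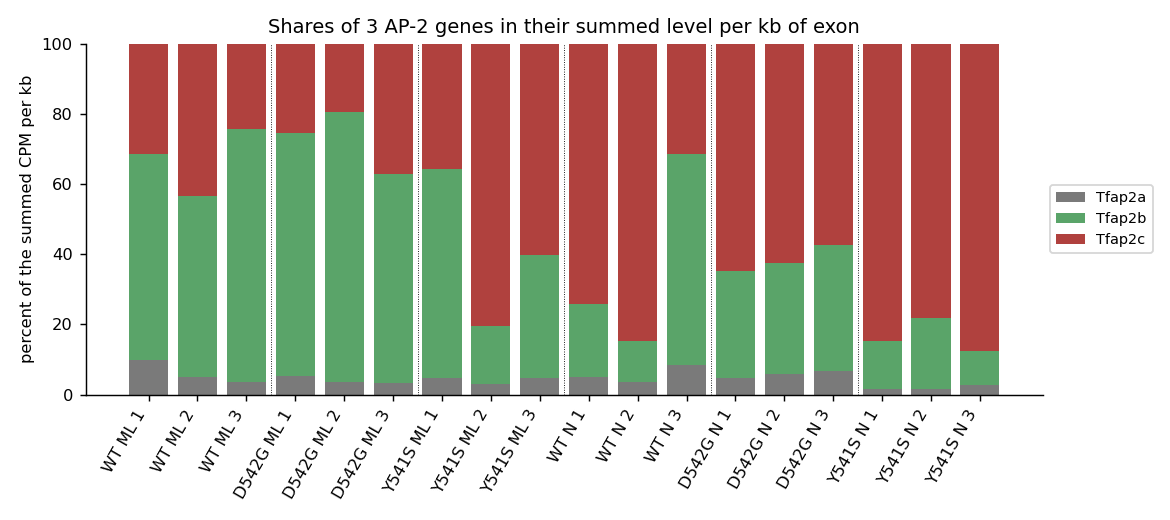
Share of Tfap2a, Tfap2b and Tfap2c in their summed level per kb of exon, in percent, for each of the 18 libraries. Tfap2c makes up 57.3 to 87.6% in 8 of the N libraries and 31.4% in WT N 3, and Tfap2a at most 9.73% in any library.

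Compared per kb of exon, the order of the members differed between groups. In WT ML the mean levels were 108 ± 77.0 CPM per kb for Foxa1 and 92.3 ± 25.7 for Gata3 (SD, n = 3), which did not differ beyond their spread. Tfap2b followed at 32.4 ± 5.57, then Tfap2c at 17.7 ± 5.57, Tbx3 at 14.0 ± 5.66 and Tfap2a at 3.46 ± 2.32 CPM per kb, with Tfap2c and Tbx3 within each other's spread. Foxa1 and Gata3 led by their means, although Foxa1 in WT ML 1, at 32.2 CPM per kb, was no higher than the Tfap2b mean. D542G ML had the same order at the top, with Foxa1 at 191 ± 73.5 and Gata3 at 108 ± 24.6 CPM per kb, and in Y541S ML the values were 109 ± 80.9 and 77.2 ± 18.1. In D542G N, Foxa1 at 230 ± 29.2 CPM per kb was far over Gata3 at 30.1 ± 4.19 and Tfap2c at 22.1 ± 1.41. In Y541S N the order began with Tfap2c at 81.4 ± 16.8 CPM per kb, followed by Gata3 at 40.9 ± 4.97 and Foxa1 at 26.5 ± 11.8. WT N had the widest spread, 59.7 ± 97.5 CPM per kb for Foxa1, 46.0 ± 34.2 for Gata3 and 44.7 ± 31.2 for Tfap2c, and these 3 could not be ordered.

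Between genotypes within the N gate, the Foxa1 and Tfap2c levels of the D542G and Y541S libraries lay apart, in opposite directions. The share of all genes that lie apart in this way was not counted. The 3 D542G N libraries had Foxa1 at 652 CPM or more and the 3 Y541S N libraries at 114 CPM or less, while Tfap2c was at 86.8 CPM or less in the first and at 237 CPM or more in the second. Foxa1 was 3.12 ± 1.21 higher in D542G on the log2 scale and Tfap2c was −1.88 ± 0.54, and neither passed edgeR's test over 18 libraries (adjusted p 0.250 and 0.107). Of all genes 1.43% were called in this comparison, and of the members 0, with 2 at an unadjusted p under 0.05. Among all genes 2622 had an unadjusted p under 0.05. Both genes were called by DESeq2 (adjusted p 0.0381 for Foxa1 and 0.0103 for Tfap2c), by limma-voom (0.00504 and 0.00762) and by edgeR fitted to those 2 groups alone (0.0134 and 0.00967). Of all genes, DESeq2 called 1135, limma-voom 1221 and edgeR on those 2 groups alone 523, against 261 by edgeR over 18 libraries. When WT N 3, a library of neither group, was left out, edgeR called both (adjusted p 0.0249 and 0.0343). Of all genes 511 were then called. The other 4 of 7 alternative fits called neither (edgeR adjusted p up to 0.322 and 0.129). Of the 18 fits that left out 1 library, 17 called neither (edgeR adjusted p up to 0.451 and 0.316). Most of the 18 left out a library of neither group, which changes the shared spread and hardly the estimate. Foxa1 thus stayed at 3.12 without WT N 3. Tbx3 was 0.40 ± 0.62 on the log2 scale in that comparison (edgeR adjusted p 0.831).

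Against WT in the N gate, edgeR called 0 of 6 members for D542G, where 2.43% of all genes were called, and 0 of 6 for Y541S, where 1.14% were. No member had an unadjusted p under 0.05 and DESeq2 called 0 in either comparison, while limma-voom called 3 and 2. Of all genes, 3376 and 2616 had an unadjusted p under 0.05, DESeq2 called 1724 and 1070, and limma-voom 4096 and 1931. The comparisons share the WT libraries. Foxa1 was 1.94 ± 1.15 in D542G and −1.17 ± 1.13 in Y541S on the log2 scale (edgeR adjusted p 0.390 and 0.699). Without WT N 3 these became 6.08 (edgeR adjusted p 0.00304) and 2.97 (0.0614), so that the second changed sign. Over 7 alternative fits the Y541S value ran from −1.185 to 3.29. It was positive in 2 of them, limma-voom and edgeR without both WT N 3 and Y541S N 3. The smaller adjusted p of those 2 fits was 0.0206, so a higher Foxa1 in Y541S passed there. Tbx3 was 0.53 ± 0.62 in D542G and 0.12 ± 0.62 in Y541S (edgeR adjusted p 0.702 and 0.958). With WT N 3 left out the Tbx3 values were 2.07 in D542G (edgeR adjusted p 0.0168) and 1.66 in Y541S (0.0666). Tfap2c was −1.01 ± 0.53 in D542G and 0.87 ± 0.53 in Y541S (edgeR adjusted p 0.322 and 0.484). For Tfap2c the values without WT N 3 were −1.44 in D542G (edgeR adjusted p 0.0763) and 0.44 in Y541S (0.667), and without WT N 2 they were −0.37 (0.776) and 1.51 (0.277). WT N 1 and 2, which set these values when WT N 3 is left out, also had epidermal marker sums of 3844 and 9960 CPM and T and innate lymphoid marker sums of 488 and 597 CPM, the latter 474 CPM in Y541S N 3 and 80.0 to 137 CPM for the 6 N libraries not named. Y541S N 3 was also high in the epidermal sum, at 11770 CPM. The part of these cells in the levels was not tested.

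In the ML gate no member passed edgeR's test between genotypes. EdgeR called 0 of 6 members in each of the 3 comparisons, where 0% of all genes were called (1129, 1012 and 886 genes at an unadjusted p under 0.05 for D542G against WT, Y541S against WT and D542G against Y541S, with 110, 51 and 63 called by DESeq2 and 93, 3 and 10 by limma-voom). Among the members, at an unadjusted p under 0.05 there was 1 member in D542G against WT (Tfap2a), 2 in Y541S against WT (Tfap2a and Tfap2b) and 1 in D542G against Y541S (Tfap2b), and DESeq2 and limma-voom called 0. Tfap2b was −1.02 ± 0.36 in Y541S against WT and 0.97 ± 0.36 in D542G against Y541S on the log2 scale, with edgeR adjusted p of 0.865 and 0.968. The Y541S ML libraries had Tfap2b at 57.9 to 144 CPM, and the D542G ML and WT ML libraries at 156 to 233 CPM. The share of all genes with such a gap between groups was not counted.

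The change between gates was compared between genotypes as an interaction. EdgeR called 0 of 6 members in D542G against WT, where 0.109% of all genes were called, 0 in Y541S against WT, where 0% were, and 0 in D542G against Y541S, where 0.109% were. For Y541S against WT, 1538 of all genes had an unadjusted p under 0.05, DESeq2 called 185 and limma-voom 334. For D542G against WT these all-gene counts were 1954, 411 and 1254, and for D542G against Y541S 1578, 323 and 263. Among the members, at an unadjusted p under 0.05 there were 0, 0 and 1 members (Tfap2b in the last), DESeq2 called 0 in each, and limma-voom called 1, 0 and 0. The gate change of Foxa1 was 1.11 ± 1.58 higher in D542G than in WT on the log2 scale (edgeR adjusted p 0.869), and 5.25 higher without WT N 3 (0.0317). Against Y541S the D542G gate change of Foxa1 differed by 2.31 ± 1.60 (edgeR adjusted p 0.748). For Gata3 the D542G gate change differed by −0.85 ± 0.54 from WT and −0.93 ± 0.54 from Y541S (edgeR adjusted p 0.615 and 0.680). The Gata3 difference from WT was −0.036 without WT N 3 (edgeR adjusted p 0.997), and the call of Gata3 in D542G alone was not shown to be particular to D542G. For Tfap2b it differed by −1.16 ± 0.51 from Y541S (edgeR adjusted p 0.549).

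**Figure D5:**
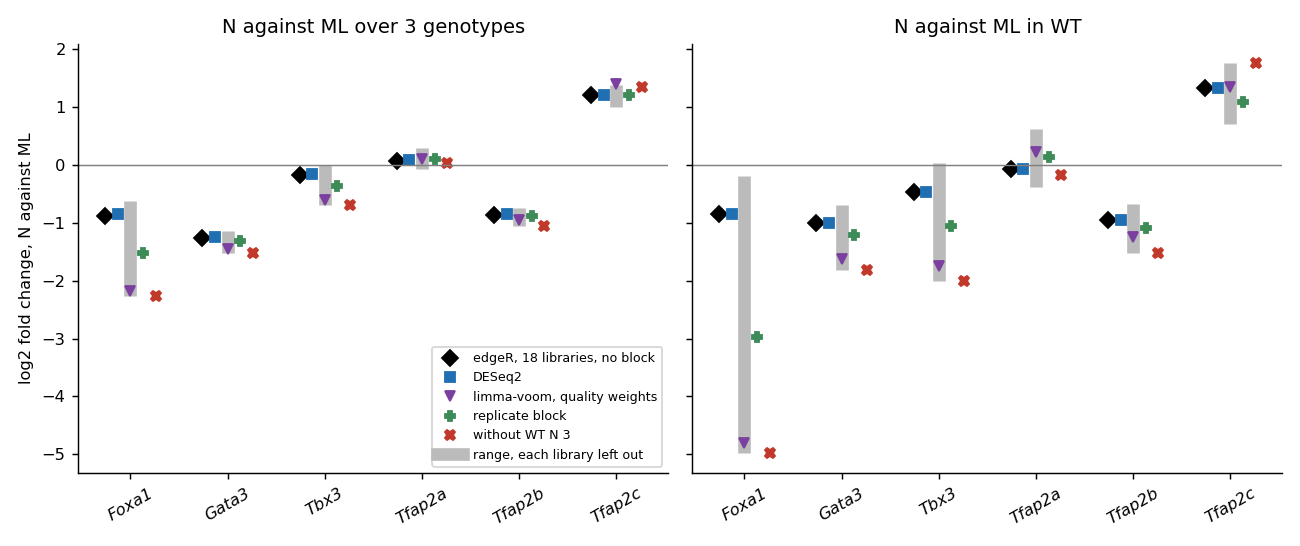
Log2 fold change of N against ML for each member over 3 genotypes (left) and in WT (right) under 5 fits, with grey bars for the range over the 18 fits that each leave out 1 library. Gata3, Tfap2b and Tfap2c keep their sign throughout, and Foxa1 in WT runs from −4.99 to −0.20.

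Genes whose pattern over the 18 libraries lay closest to each member were found by the root mean square difference of centred log2(CPM + 1), among 9684 genes. The libraries share gate, genotype and composition, so these distances are a description. Foxa1 was followed by Ffar4 (0.566), a fatty acid receptor gene, Tgm2 (0.594), a transglutaminase gene, and Vill (0.776). Gata3 was followed at smaller distances, by Bcl2l1 (0.181), which encodes the survival factor BCL-XL, Ssbp4 (0.224) and Psen2 (0.261). Its own SD over the libraries was also smaller, 0.811 against 2.013 for Foxa1 on the log2 scale. The correlation with the nearest gene was 0.974 for Gata3, 0.958 for Foxa1 and 0.877 for Tfap2a. The nearest to Tbx3 were Nr2f2 (0.285), the gene of the nuclear receptor COUP-TFII, Ubxn11 (0.306) and Gprc5c (0.325). For Tfap2a they were Cstb (0.245), Atox1 (0.273) and Dazap1 (0.280). Tfap2b lay nearest to Guk1 (0.286), Mien1 (0.315) and Hpcal1 (0.319), and Tfap2c to Iffo2 (0.427), Ldhb (0.444) and Ackr3 (0.466). No gene was among the nearest 3 of more than 1 member.

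Other genes of the same families were few, and none of those tested was above 39.3 CPM in a library. Of the other AP-2 genes Tfap2e rose in N over the 3 genotypes by 2.98 ± 0.92 on the log2 scale (edgeR adjusted p 0.0261), from 0 to 2.71 CPM in ML to 0 to 17.8 CPM in N, and Tfap2d, at 0.31 CPM or less, did not pass (0.230). Of 3 other Gata genes tested, Gata6 rose by 2.53 ± 0.85 (edgeR adjusted p 0.0390), with 27.5 and 39.3 CPM in WT N 1 and 2 and at most 13.2 CPM elsewhere. The related forkhead gene Foxa3 and the T-box genes Tbx2 and Tbx5 did not pass (edgeR adjusted p 0.643, 0.300 and 0.0602). Tbx2 stood at 18.6, 18.8 and 24.9 CPM in D542G N and at most 5.85 CPM elsewhere. Gata2 stood at 28.8 CPM in Y541S ML 2, 28.25 CPM in Y541S N 2 and at most 6.42 CPM elsewhere. Foxa2, Gata4 and Tbx4 had too few counts to test, and Gata5 is listed at 0.

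Among 19 tested cofactors and inhibitors of the members, 4 rose and 3 fell in N over the 3 genotypes, with a median log2 fold change of −0.13. Kctd15, whose product inhibits AP-2 factors, rose by 2.05 ± 0.31 on the log2 scale (edgeR adjusted p 0.000257). It stood at 9.45 to 27.0 CPM in N and 1.51 to 11.3 CPM in ML. Cited4, a member of a family of coactivators of AP-2, fell by 2.20 ± 0.44 (edgeR adjusted p 0.00212), from 40.5 to 249 CPM in ML to 5.96 to 54.5 CPM in N. The corepressor gene Tle1 rose by 0.59 ± 0.14 and the deacetylase gene Hdac1 fell by 0.52 ± 0.11 (edgeR adjusted p 0.00637 and 0.00265). Tle1 stood at 161 to 168.5 CPM in D542G N, 54.4 to 102 CPM in the other N libraries and 46.5 to 89.8 CPM in ML. The 7 of 19 called compare with 27.4% of all genes, and the median with −0.029 over all genes.

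Of 14 other factors and receptors of hormone-sensing luminal cells, 3 rose and 2 fell, against 13.8% and 13.6% of all genes, with a median of 0.05 on the log2 scale. Prlr, the prolactin receptor gene, fell by 2.71 ± 0.50 (edgeR adjusted p 0.00128). Zfp703, a corepressor gene, rose by 1.53 ± 0.31 and Runx1 by 0.88 ± 0.18 (edgeR adjusted p 0.00253 and 0.00238), and Myb rose by 1.77 ± 0.43 (0.00714). The Myb levels were 119 to 174 CPM in D542G N, 8.48 to 56.0 CPM in Y541S N and 6.24 to 21.8 CPM in ML. In WT N they were 3.70, 2.92 and 25.4 CPM. Genes proposed as luminal targets of these factors were mostly lower in N: 10 of 15 tested fell and 1 rose, against the same shares of all genes, with a median of −1.78 on the log2 scale. Muc1, which encodes an apical mucin, the cyclin gene Ccnd1 and the receptor gene Erbb3 fell, with log2 fold changes of −3.94 ± 0.37, −2.504 ± 0.23 and −1.45 ± 0.19 (edgeR adjusted p 7.37e-06, 5.56e-06 and 7.83e-05). Greb1, an estrogen receptor target, rose by 1.84 ± 0.27 (edgeR adjusted p 0.000248), to 6.36 to 15.8 CPM in D542G N and Y541S N against 1.44 to 3.22 CPM in ML, with 2.64, 1.99 and 6.86 CPM in WT N. The target list shares 7 genes with the luminal markers, all 10 of which fell.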

How the data were processed

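Per the labels' protocols, mammary cells were sorted by flow cytometry, with RNeasy Micro Plus RNA extraction and Nextera XT libraries. The authors deposited whole-number read counts per gene, mapped to GRCm38 per the submitters' processing notes (aligner, counter and strandedness: not given in the sources used here). Of 52636 gene identifiers 52489 (99.7%) matched GENCODE M21, which gave symbols and exon lengths.

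Groups came from the labels (3 genotypes by 2 gates, 3 libraries each). In R 4.3.3, edgeR 4.0.16 fitted 6 group means to 18298 genes kept by filterByExpr (minimum count 10, minimum total 15) with TMM scaling and 12 residual degrees of freedom. The quasi-likelihood test was adjusted by Benjamini-Hochberg over all genes in each comparison, and a call means an adjusted p under 0.05. CPM uses library totals times TMM factors (0.850 to 1.10), and CPM per kb divides by the union of exons. Neighbouring genes share 5.83% of Gata3, 1.74% of Tbx3 and 14.6% of Tfap2a exon bases, and the effect on their levels was not tested. The script was tested on simulated data.

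The members and gene lists were chosen with earlier results of these data known. Named genes are the 6 members, up to 4 genes of each list with the smallest p over the 3 genotypes, and the 3 genes nearest to each member among those with an average log2 CPM of at least 3. Alternatives were DESeq2 1.42.0, limma-voom 3.58.1 with quality weights, other scaling and filters, a replicate block, only the groups compared, and each library left out. Leaving out both WT N 3 and Y541S N 3 was added after the data were seen.

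Whether equal library numbers pair samples was checked on deviations from group means. Within genotypes the 9 same-numbered N and ML pairs had r of 0.168 to 0.556, and differently numbered pairs −0.456 to 0.193, and the numbers were taken to pair them. WT N 2 had a higher r with WT ML 1 (0.193) than with WT ML 2 (0.168). The main fit did not use the pairing. The pairing rests on the data, since the labels name no shared animal.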

Additional observations from a re-analysis of the deposited data

How the results depend on the processing

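Over the 3 genotypes, Gata3, Tfap2b and Tfap2c kept their direction and call under the 7 other fits and with each of the 18 libraries left out. Of 1049 refits of 41 member values, 961 kept direction and side of the threshold, 50 newly passed it, 6 no longer passed and 32 changed sign. The count of members called over the genotypes was 3, and 3 to 5 with a library left out. With a library left out the count ran from 0 to 5 in WT, 0 to 2 in D542G, 0 to 2 in Y541S, 0 to 2 for D542G against WT in N, 0 to 2 for D542G against Y541S in N and 0 to 1 for the gate change in D542G against WT, and was 0 in the other comparisons. Apart from D542G, where its own libraries lowered the count, each of these changes came without WT N 3. Over all genes, edgeR calls without WT N 3 went from 5021 to 6398 over the genotypes and from 646 to 3045 in WT. In Y541S they went from 1272 to 2091, and for D542G against WT in N from 444 to 1408. For D542G against Y541S in N they went from 261 to 511, and for the gate change in D542G against WT from 20 to 156. In D542G 1684 genes were called with all libraries and 732 to 1563 without 1 of its own.

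Limma-voom called 5 members over the genotypes, 5 in WT, 3 in D542G (2 by edgeR), 1 in Y541S, 3 for D542G against WT in N, 2 for Y541S against WT in N, 2 for D542G against Y541S in N and 1 for the gate change in D542G against WT. Of all genes it called 7690 over the genotypes, 5167 in WT, 5862 in D542G and 2595 in Y541S. In N it called 4096 for D542G against WT, 1931 for Y541S against WT and 1221 for D542G against Y541S. For the gate change in D542G against WT it called 1254. DESeq2 called 1 in Y541S and 2 for D542G against Y541S in N, as did the fit of the groups compared alone for the latter (2). Of all genes DESeq2 called 2504 and 1135 in these comparisons, and the fit of the groups compared alone called 523 for the latter. Without WT N 3 and Y541S N 3 together the counts were 5 over the genotypes, 5 in WT, 2 for D542G against WT in N, 2 for Y541S against WT in N, and 1 for each gate change against WT. The fit without both libraries called 6109 of all genes over the genotypes and 3384 in WT. Against WT in N it called 1877 for D542G and 1946 for Y541S, and for the gate changes against WT 419 and 827. The replicate block gave 1 in WT and 2 in Y541S, and beyond those calls and Foxa1 over the genotypes it changed none. With the block, 900 of all genes were called in WT, 1589 in Y541S and 4903 over the genotypes.

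Signs changed as follows, on the log2 scale, and the cause was not tested. For N against ML, Tfap2a was −0.11 over the genotypes without both libraries, 0.22 by limma-voom and 0.14 with the block in WT, and −0.14 by limma-voom, −0.011 with the block and −0.37 without both libraries in Y541S. Tbx3 was −0.081 by limma-voom in D542G, and 0.033 by limma-voom and 0.13 without both libraries in Y541S. Foxa1 in Y541S against WT in N was 2.87 by limma-voom and 3.29 by edgeR without both libraries, and the smaller adjusted p of these 2 fits was 0.0206. The gate change of Foxa1 in Y541S against WT was 3.04 by limma-voom, 1.06 with the block and 3.27 without both libraries. With a library left out, N against ML ran from −0.69 to 0.003 (Tbx3) and −0.071 to 0.30 (Tfap2a) over the genotypes, −2.01 to 0.027 (Tbx3) and −0.39 to 0.63 (Tfap2a) in WT, −0.025 to 0.46 (Foxa1) and −0.15 to 0.27 (Tbx3) in D542G, and −0.39 to 0.16 (Tbx3), −0.35 to 0.32 (Tfap2a) and −0.51 to 0.10 (Tfap2b) in Y541S. Y541S against WT in N ran from −1.76 to 2.97 (Foxa1) and −0.35 to 1.66 (Tbx3), and the gate change of Foxa1 in Y541S against WT from −1.85 to 2.94. Each member had at least 243 counts in each library, and whether count depth limited the tests was not tested.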

Other observations

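Factors of the neighbouring mammary lineages also differed between the gates. Of 9 tested factors of luminal progenitors, 5 fell and 2 rose in N over the 3 genotypes, with a median of −0.59 on the log2 scale. Elf5, which drives alveolar fate, fell by 3.74 ± 0.57 (edgeR adjusted p 0.000299), Hey1, a Notch target, by 2.28 ± 0.39 (0.000696), Ehf by 1.55 ± 0.30 (0.00172) and Sox10 by 1.59 ± 0.33 (0.00288). Sox10 was low in D542G N and WT N, at 7.35 to 31.4 CPM, but not in Y541S N, at 66.5 to 166.5 CPM. Its ML range was 47.7 to 216 CPM.

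Of 10 tested basal factors, 6 rose and 1 fell, with a median of 2.03 on the log2 scale. Egr2 rose by 2.62 ± 0.24 (edgeR adjusted p 5.14e-06), Snai2, a repressor of luminal genes, by 4.92 ± 0.60 (5.04e-05), Irx4 by 4.51 ± 0.72 (0.000448) and Id4 by 2.92 ± 0.50 (0.000698). Snai2 is also among the basal markers, all 10 of which rose. Over all genes tested, 13.8% were called higher and 13.6% lower.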
